A study of Homo sapiens with 4 samples.

Results

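The axon guidance ligands and receptors are 71 of the 20037 protein-coding genes placed on chromosomes 1 to 22, X and Y, and their symbols match the names of the guidance families; no peak value entered the rule. They comprise 20 semaphorins, 9 plexins, 2 neuropilins, 14 Eph receptors, 8 ephrins, 6 netrins (including the netrin-G genes), DCC, 4 UNC5 receptors, 3 Slits and 4 Robo receptors. Lactylation of lysine 5 on histone H4 (H4K5la) was mapped by ChIP-seq in SH-SY5Y, a cell line from a human neuroblastoma. Unmodified (WT) cells and cells with a knockout of DNAJC12 (DNAJC12KO) each gave 1 immunoprecipitated and 1 input library, and both genotypes share the SH-SY5Y background with no treatment named in the labels. Whether the knockout is 1 clone is not given in the sources used here.

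Guidance molecules steer growing axons and migrating cells by attraction or repulsion. Semaphorins signal through plexins, the secreted ones mostly with a neuropilin as co-receptor, and ephrins on one cell engage Eph receptor tyrosine kinases on another. Secreted netrins, as distinct from the membrane-anchored netrin-G proteins, act through DCC and the UNC5 receptors, and Slits repel axons through Robo receptors. Many of these genes are active in the neural crest, from which the sympathetic lineage of neuroblastoma derives. Histone lactylation is an acyl mark that takes its group from lactate. Peaks of such a mark describe chromatin and do not measure expression of the gene.

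The data were 1 peak list per genotype, with 1937 WT peaks and 2743 DNAJC12KO peaks on these chromosomes. Each peak carries the authors' fold (its enrichment as a ratio to the peak caller's background) and its -log10 q, and these values describe and rank peaks within a list. Sequencing depth is unknown because no counts accompany the lists, and unequal depth would change which peaks were called. Each genotype rests on 1 library, so differences between WT and DNAJC12KO have no replicate check and were not tested. The knocked-out gene DNAJC12 carried no peak in either list, so the lists do not check the label. Of 12 adrenergic neuroblastoma markers, DBH had a WT peak and TH a DNAJC12KO peak (8.33% each, against 6.46% and 8.23% of all protein-coding genes). Of 8 mesenchymal-type markers, WWTR1 had a WT peak (12.5%, against 6.46%) and none had a DNAJC12KO peak (against 8.23%). As peaks do not measure expression, these counts do not check the cell type.

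A gene was counted when a peak overlapped its record, or the 3 kb on either side, by at least 1 bp. SEMA4D, a membrane-bound semaphorin that signals through plexin B1, was the only one of the 60 members with a promoter listed by RefSeq to have a peak on it (the window from 250 bases before to 50 bases after a transcription start). Its WT peak on chromosome 9 (89495723 to 89496182) began 67 bp upstream of the listed start, which lies inside the gene record. The peak had a fold of 3.44 and a -log10 q of 1.18. That fold is low for the WT list, at percentile 9.1. The listed promoter is printed to show which bases the peak covered. Next to it are the listed promoters of PLXNA1 and PLXNB2, the members with the most peaks, on which no peak lay. The listed starts of SEMA4D and PLXNB2 lie inside their gene records, so these windows are not at the records' 5′ ends. The PLXNA1 window is at the 5′ end of its record. All are from RefSeq, build GRCh38.p14, 5′ to 3′ on the gene's own strand, and capitals mark bases inside a peak of either list. They lie at chr9:89495607-89495906 (minus strand), chr3:126982865-126983164 (plus strand) and chr22:50301620-50301919 (minus strand).
SEMA4D: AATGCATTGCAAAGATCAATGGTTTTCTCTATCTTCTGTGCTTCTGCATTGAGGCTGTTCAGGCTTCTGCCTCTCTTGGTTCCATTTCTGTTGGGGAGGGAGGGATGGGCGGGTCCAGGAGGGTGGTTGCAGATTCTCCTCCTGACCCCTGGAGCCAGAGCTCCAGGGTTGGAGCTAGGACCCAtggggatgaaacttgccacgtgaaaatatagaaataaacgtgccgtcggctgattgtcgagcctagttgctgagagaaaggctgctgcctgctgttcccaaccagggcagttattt
PLXNA1: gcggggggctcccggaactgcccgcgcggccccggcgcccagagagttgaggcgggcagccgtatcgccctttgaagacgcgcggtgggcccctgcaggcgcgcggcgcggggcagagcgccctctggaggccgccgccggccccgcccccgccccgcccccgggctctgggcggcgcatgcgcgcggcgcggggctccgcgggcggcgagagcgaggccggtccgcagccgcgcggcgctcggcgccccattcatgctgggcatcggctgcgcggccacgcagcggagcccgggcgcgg
PLXNB2: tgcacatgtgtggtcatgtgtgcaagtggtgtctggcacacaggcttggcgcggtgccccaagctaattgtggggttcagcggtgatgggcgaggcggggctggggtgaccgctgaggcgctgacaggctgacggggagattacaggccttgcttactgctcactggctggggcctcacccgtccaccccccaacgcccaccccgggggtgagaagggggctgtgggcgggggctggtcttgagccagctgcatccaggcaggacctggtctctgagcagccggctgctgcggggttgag
The WT peak covered 184 of the 300 bases of the SEMA4D promoter. The dinucleotide CG, which reads the same on both strands, occurred 6 times in that window, 54 times in the PLXNA1 window and 14 times in the PLXNB2 window. Over the 15842 protein-coding genes with a listed promoter, the median was 22, and 98.1% held at least 1 CG. The SEMA4D window, partly under a peak, was poor in CG, and the PLXNA1 window, which carried no peak, was rich in it. These are single windows and show no trend. Among guidance genes with a listed promoter, the median was 27 for those with a peak in the record or the 3 kb around it. For those without one it was 21. Over all protein-coding genes these medians were 28 and 21.

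In the WT list 14 of the 71 guidance genes had a peak (19.7%, exact Clopper-Pearson 95% interval 11.2 to 30.9%), against 6.46% of all protein-coding genes. In the DNAJC12KO list 18 had one (25.4%, interval 15.8 to 37.1%), against 8.23% of all. Intervals cover counting error only. Both lists shared 9 genes (12.7%, against 2.92% of all), which is 64.3% of the WT members and 50% of the DNAJC12KO members. Over all protein-coding genes, the shared ones were 45.2% of those with a WT peak and 35.5% of those with a DNAJC12KO peak. In total 23 members (32.4%) had a peak in at least 1 list, against 11.8% of all, and 48 had none. Each of these counts lay above its background share, although with 1 library per genotype and members chosen with earlier results known, it is given as a description.

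**Figure D1:**
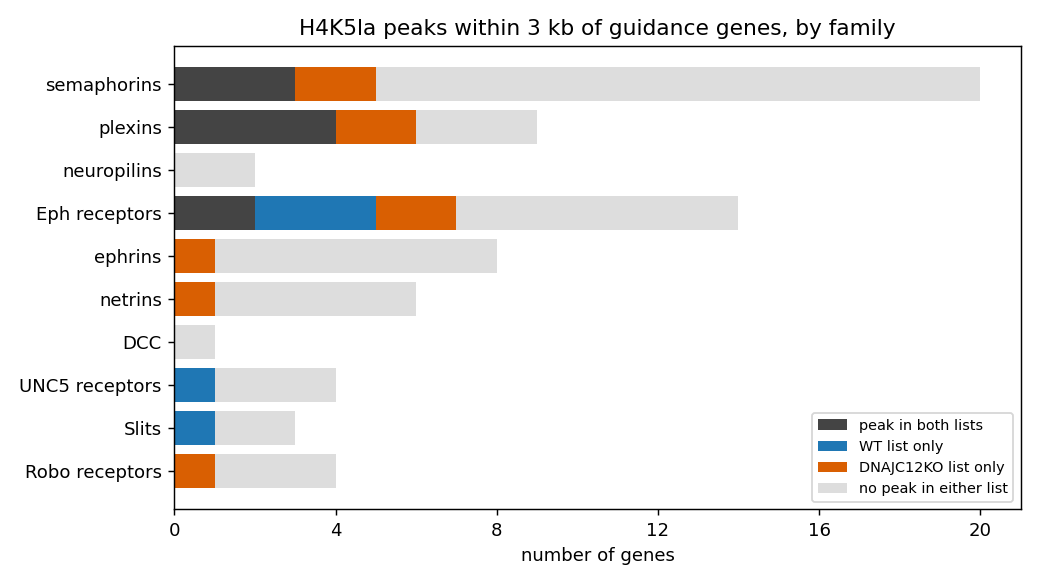
Number of guidance genes in each family (horizontal axis, genes) with a peak in both lists, in 1 list only, or in none, for the window of the gene record and 3 kb on each side. Plexins had a peak in 6 of 9 genes, while both neuropilins and DCC had none.

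Plexins, the semaphorin receptors, carried the most peaks. Of 9 plexin genes, 4 had a peak in both lists and 2 more in the DNAJC12KO list alone, with 14 WT and 12 DNAJC12KO peaks in all. The 6 marked plexins are 66.7% of the family, against 11.8% of all protein-coding genes. The plexin peaks were 26 of the 54 peaks found at guidance genes. PLXNA2, PLXNA3 and PLXNC1 had none.

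PLXNA1, a receptor of secreted semaphorins together with neuropilins, had 5 peaks in each list (chromosome 3, 126983115 to 127037389, 54.3 kb). Its WT peaks lay at 126990499 to 126990905 (fold 3.95), 126991564 to 126991992 (4.22), 127000166 to 127000723 (4.18), 127014885 to 127015290 (4.10) and 127017004 to 127017285 (4.39). Its DNAJC12KO peaks lay at 126990434 to 126990726 (fold 3.67), 126996094 to 126996498 (3.97), 126999647 to 127000089 (3.66), 127031287 to 127031622 (3.99) and 127032851 to 127033664 (3.91). Equal numbers did not mean equal places. The first peak of each list overlapped by 228 bp, and the third of each lay 77 bp apart, but 2 WT peaks in the middle of the gene and 2 DNAJC12KO peaks near its 3′ end had no counterpart closer than 14.0 kb. No PLXNA1 peak of either list came closer than 7.32 kb to the listed start.

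PLXNB2, a receptor of membrane-bound semaphorins, had 6 WT peaks and 2 DNAJC12KO peaks within 32.7 kb (chromosome 22, 50274979 to 50307646). The WT peaks lay at 50278417 to 50279134 (fold 3.96), 50280992 to 50281696 (4.38), 50283424 to 50284072 (3.82), 50287366 to 50288198 (4.35), 50290785 to 50291372 (3.89) and 50297254 to 50298467 (4.48). The DNAJC12KO peaks lay at 50278129 to 50279205 (fold 4.34, -log10 q 2.05) and 50283436 to 50283885 (3.61, -log10 q 1.68). Both DNAJC12KO peaks sat on WT peaks: the first enclosed a WT peak of 718 bp, and the second lay whole inside another. Of the other 4 WT peaks, 1 lay between the DNAJC12KO peaks and 3 lay on their start side, 1.74 to 13.4 kb from the nearest DNAJC12KO peak. PLXNB2 held the highest fold of any guidance gene in each list, at percentile 94.4 of the WT list and 95.4 of the DNAJC12KO list. With the DNAJC12KO list cut to the WT length, the counts at PLXNB2 were again 6 and 2.

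PLXNA1 and PLXNB2 were the only guidance genes with 8 or more peaks over both lists, a number reached by 0.225% of all protein-coding genes. With 3 or more peaks there were 6 members (8.45%, against 1.96% of all): these 2, PLXNB3, SEMA3F, SEMA4D and SEMA6C. All 6 are semaphorins or plexins, and all had peaks in both lists. The cut sums both lists and so favours genes marked in both. No background share of genes marked in both was computed for it.

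PLXNB3, a receptor for a transmembrane semaphorin, had 2 peaks in each list along 15.1 kb of the X chromosome, and none overlapped between lists. The WT peaks lay at 153767558 to 153767836 (fold 4.23) and 153771234 to 153772033 (3.61). The DNAJC12KO peaks lay at 153765469 to 153765852 (3.90), which also lies in the antisense record PLXNB3-AS1, and at 153773714 to 153774808 (3.85). Both WT peaks lay between the DNAJC12KO peaks, with a smallest gap of 1.68 kb.

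The long PLXNA4 gene (525 kb) differed from these compact plexins, with 1 peak in each list, 21.1 kb apart. Its WT peak (132210890 to 132211472, fold 3.29) and its DNAJC12KO peak (132189465 to 132189787, fold 3.46) on chromosome 7 were low within their lists, at percentiles 2.6 and 19.2. PLXNB1, the receptor of SEMA4D, had a DNAJC12KO peak near its 3′ end (fold 3.71), and PLXND1, a semaphorin receptor of blood vessels and neurons, had one 7.40 kb from its start (3.51). The nearest WT peak was 249 kb from PLXNB1 and 427 kb from PLXND1.

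Among the ligands of plexins, 5 of 20 semaphorin genes had a peak (25%, against 11.8% of all protein-coding genes), with 5 WT and 8 DNAJC12KO peaks. SEMA3F, a secreted semaphorin that acts through neuropilin 2 and repels axons, had 2 peaks in each list (chromosome 3, 50155058 to 50189075). Its WT peaks lay at 50160242 to 50160520 (fold 4.46, -log10 q 2.21, the highest -log10 q of any guidance gene) and 50168127 to 50168752 (3.51). Its DNAJC12KO peaks lay at 50160660 to 50160978 (3.37, -log10 q 1.16) and 50174253 to 50174592 (4.07). The stronger WT peak and the weaker DNAJC12KO peak were neighbours, 140 bp apart and 1.22 and 1.64 kb downstream of a listed start.

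SEMA4D had 2 peaks in each list, far apart along its 137 kb. Besides the promoter peak, the WT list had one at 89481383 to 89481666 (fold 4.07), and the DNAJC12KO list had peaks at 89389840 to 89390276 (4.01) and 89427362 to 89428061 (3.78). From the 5′ end of SEMA4D, the WT peaks lay at 1.6% and 12.1% of the record. The DNAJC12KO peaks lay at its middle (51.3%) and at 78.7%, with at least 53.3 kb between the peaks of the lists. SEMA6C, a transmembrane semaphorin of 14.9 kb, showed the opposite arrangement, with overlap at its 3′ end. Its WT peak (151132094 to 151132591 on chromosome 1, fold 3.53) overlapped a DNAJC12KO peak (151131853 to 151132205, 3.40) by 112 bp, and a second DNAJC12KO peak lay at 151135264 to 151135730 (3.31). SEMA3G, a secreted semaphorin (fold 3.77), and SEMA4A, a membrane-bound one (3.60), had 1 peak each, in the DNAJC12KO list alone.

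The 15 semaphorins without a peak include the cluster SEMA3A, SEMA3C, SEMA3D and SEMA3E on chromosome 7. The nearest peaks to those 4 genes were 1730 to 4030 kb away in the WT list and 4330 to 8130 kb away in the DNAJC12KO list. The neuropilins NRP1 and NRP2, co-receptors of secreted semaphorins, were also bare, with no peak of either list closer than 2370 kb. Peaks at this signalling axis were found at plexins and 5 of their ligands and at neither co-receptor. Of all protein-coding genes of at least 100 kb, only 13.1% had a peak in either list. NRP1 (157 kb) and NRP2 (116 kb) are of that length, and so few genes without a peak show no departure from the background.

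Of 14 Eph receptors, 7 had a peak (50%, against 11.8% of all protein-coding genes), 2 of them in both lists, but for 3 of the 7 the peak lay outside the gene record. EPHB4, a receptor of ephrin-B2 known from vessels, had a WT peak of 1413 bp, the widest at any guidance gene, at 100805181 to 100806593 on chromosome 7 (fold 3.76). Its DNAJC12KO peak lay at 100823602 to 100824156 (3.37), 17009 bp away, towards the 5′ end of the gene. EPHA1 was counted in both lists only by peaks beyond its 3′ end, at 143387816 to 143388146 (WT, fold 3.24) and 143389813 to 143390203 (DNAJC12KO, 3.91, -log10 q 1.94), both inside ZYX, the gene of the adhesion protein zyxin. With the gene record alone, EPHA1 had no peak.

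EPHA2, an Eph receptor widely expressed in epithelia and tumours, had a WT peak 2.90 kb upstream of its start, at 16158970 to 16159248 on chromosome 1 (fold 4.31), inside the antisense record EPHA2-AS1. Peaks carry no strand, so EPHA2 and EPHA2-AS1 cannot be told apart. EPHB6, which lacks kinase activity, was counted by a DNAJC12KO peak 2.74 kb beyond its 3′ end, inside the calcium channel gene TRPV6 (fold 3.86). The remaining Eph receptors had their peak in the 3′ part of the gene: EPHA8 (WT, fold 3.85), EPHB3 (WT, 3.68) and EPHB2 (DNAJC12KO, 3.55). At 94.5%, 76.6% and 97.3% of the record, these peaks were far from the starts. The 7 Eph receptors without a peak (EPHA3, EPHA4, EPHA5, EPHA6, EPHA7, EPHA10 and EPHB1) had none closer than 99.3 kb in either list.

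The ephrins, ligands of Eph receptors, had 1 gene of 8 with a peak (12.5%), close to the 11.8% of all protein-coding genes. EFNA3, a membrane-anchored ephrin-A, carried a DNAJC12KO peak 3.65 kb downstream of its start (fold 3.30), in sequence shared with the readthrough record EFNA4-EFNA3. Windows of 10 kb added WT peaks at EFNA2, 5.03 kb from the record, and at EFNA4, 5.99 kb away. Among members without a peak in the window, these were the nearest peaks. Of the peaks inside the window, the EPHA1 WT peak, 2.98 kb from its record, was the farthest from a record.

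In the netrin and Slit systems 4 of 18 genes had a peak in either list (22.2%, against 11.8% of all protein-coding genes). UNC5B, a netrin receptor of neurons and vessels, had 1 WT peak (71296455 to 71296733 on chromosome 10, fold 4.40, -log10 q 2.01), among the highest folds of the guidance genes. NTNG2, a netrin-G that is anchored to the axon surface, had 2 DNAJC12KO peaks (fold 3.61 and 3.78). SLIT1, a secreted axon repellent, had 1 WT peak 167 kb from its start (97018913 to 97019402 on chromosome 10, fold 4.00). ROBO3, which lets commissural axons cross the midline, had 1 DNAJC12KO peak 1.37 kb upstream of a start inside the record (fold 3.72). None of these 4 genes had peaks in both lists. Over all protein-coding genes 2.92% had peaks in both, against 11.8% in either, so so few genes show no departure from the background. DCC, the netrin receptor of 1200 kb, and ROBO1 and ROBO2, of 1170 and 1740 kb, had no peak, and the nearest ones were at least 2530 kb away.

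**Figure D2:**
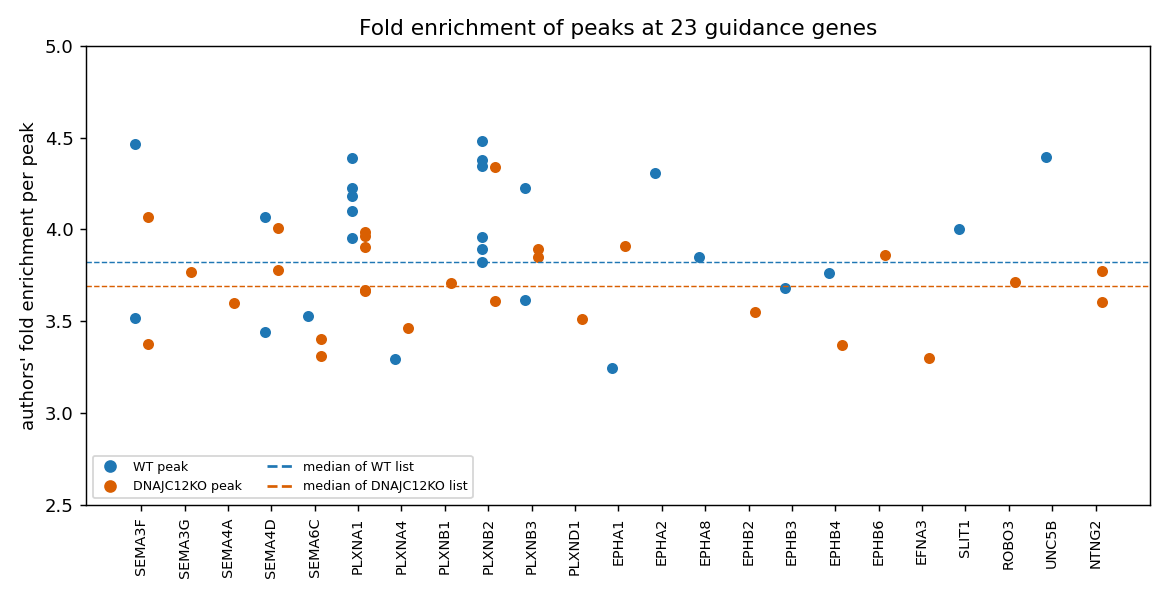
Authors' fold enrichment of each peak (vertical axis, linear ratio, from 2.5) at the 23 guidance genes with a peak. Points are single peaks, blue for WT and orange for DNAJC12KO, and dashed lines are the medians of the whole lists (3.82 and 3.69). The PLXNA1 and PLXNB2 peaks of the WT list all lie at or above the WT median.

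In median fold the guidance peaks were near their lists. The share with a fold of at least 4 was above the list's share in WT and below it in DNAJC12KO. The 26 WT peaks had a fold of 3.24 to 4.48 with a median of 3.98, against 3.82 over the WT list, and a median width of 475 bp. The 28 DNAJC12KO peaks had a fold of 3.30 to 4.34 with a median of 3.71, against 3.69 over that list. A fold of at least 4 was reached by 13 WT peaks (50%, against 28.3% of the WT list), of which PLXNA1 and PLXNB2 supplied 7. Without these 2 genes the WT median was 3.76, below the list's median, while 6 of the 15 remaining WT peaks (40%) had a fold of at least 4, still above the list's share. In the DNAJC12KO list 3 peaks reached a fold of 4 (10.7%, against 17.3% of the list). A fold depends on the background of each library, so the 2 lists' folds are not a measure of change.

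Few guidance peaks coincided between genotypes, even within shared genes. Of the 26 WT peaks, 4 overlapped a DNAJC12KO peak (15.4%, against 8.88% of the WT list), and 4 of the 28 DNAJC12KO peaks overlapped a WT peak (14.3%, against 6.31% of that list). They were 1 pair at PLXNA1, 2 at PLXNB2 and 1 at SEMA6C. At the other 6 shared genes the peaks of the lists were 140 bp (SEMA3F) to 53.3 kb (SEMA4D) apart.

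**Figure D3:**
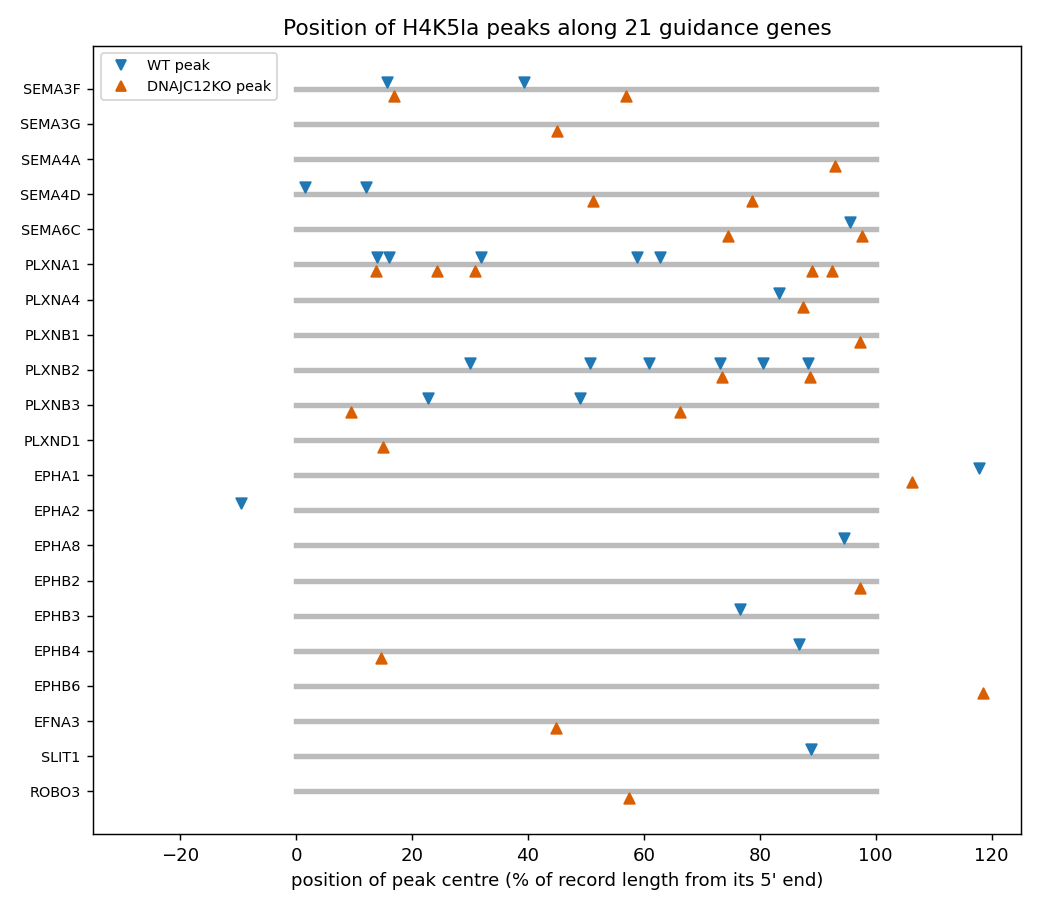
Position of each peak centre along 21 guidance genes (horizontal axis, percent of the gene record from its 5′ end; values below 0 or above 100 are outside the record). Triangles pointing down are WT peaks and triangles pointing up DNAJC12KO peaks; grey bars are the records. Peaks are spread along gene bodies, and 1 of them, in SEMA4D, reaches a listed promoter.

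Guidance peaks lay in gene bodies, away from starts, as did peaks of other genes. RefSeq listed a promoter, and with it the strand, for 60 members, and NTNG2 and UNC5B were the members with a peak that had no entry. Of the 51 peaks at the other 21 genes, 1 touched a listed promoter (1.96%, against 1.80% over all protein-coding genes with an entry) and 6 came within 3 kb of a listed start (11.8%, against 16.4%). The median distance to the nearest start was 14.4 kb, against 15.5 kb. The centre of 31 peaks (60.8%, against 64.4%) lay past the middle of the record. By position the guidance peaks were therefore close to the background.

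**Figure D4:**
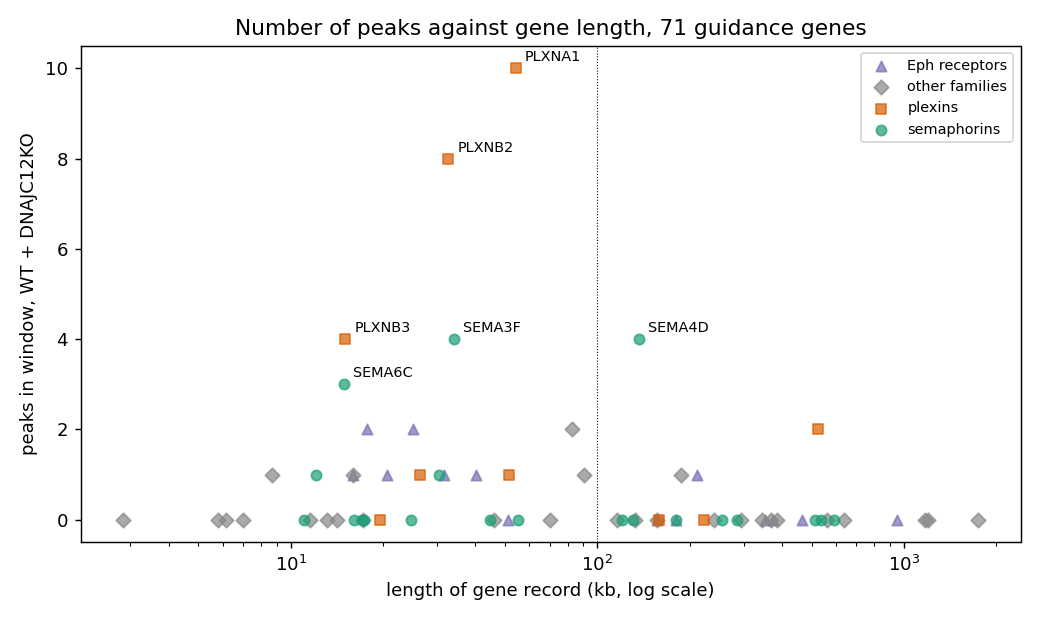
Number of peaks in the window, WT and DNAJC12KO summed (vertical axis), against the length of the gene record (horizontal axis, kb, log scale) for the 71 guidance genes. The dotted line marks 100 kb; PLXNA1 and PLXNB2 stand highest, and most genes to the right of the line have no peak.

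Guidance genes with a peak were shorter than those without one, unlike genes in general. Members with a peak had a median length of 31.7 kb, and those without one 157 kb. Over all protein-coding genes the order was the opposite, with 28.8 kb and 23.6 kb. Of the 38 members under 100 kb, 19 had a peak (50%, interval 33.4 to 66.6%), against 11.5% of all protein-coding genes of that length. Of the 33 members of at least 100 kb, 4 had one (12.1%, interval 3.40 to 28.2%), against 13.1%: EPHB2, PLXNA4, SEMA4D and SLIT1. The long members were thus near their background and the short ones above it. Among members of at least 300 kb, PLXNA4 alone of 16 carried peaks (6.25%, against 15.9%).

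The neighbourhood moved with the peaks as well. Members with a peak had a median of 37 other protein-coding genes within 1 Mb, and those without one 11, against 36 and 21 over all genes. Outside the window but within 1 Mb, the medians were 9 peaks of both lists together for members with a peak and 0.5 for those without, against 12 and 2 over all genes. None of the 24 members without such a neighbouring peak had a peak itself (against 2.01% of all such genes), and 23 of the 47 others did (48.9%, against 16.8%). Among genes with at least 30 coding neighbours, 16 of 33 members had a peak (48.5%, against 18.1%), and among those with fewer than 10, 2 of 23 did (8.70%, against 3.45%): PLXNA4 and SEMA4D. The part of gene density in the members' counts was not tested beyond these shares.

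Genes that work with guidance receptors, 55 of them listed by function, were looked up for peaks as well. No interval was computed for these small counts, so whether any share differs from its background was not tested. They had 11 members with a WT peak (20%, against 6.46% of all genes) and 8 with a DNAJC12KO peak (14.5%, against 8.23%). Of the 55, 4 had peaks in both (against 2.92% of all genes): DPYSL4, L1CAM, LIMK1 and MICAL3. MICAL3 belongs to a family of actin-oxidising enzymes that includes plexin effectors, with best folds of 3.94 in WT and 3.92 in DNAJC12KO. LIMK1, a kinase that restrains cofilin, had 3.96 and 3.83. L1CAM, an adhesion molecule of growing axons, had 3.86 and 4.14, and DPYSL4, of the collapsin response mediator family, had 3.53 and 3.62, the latter beyond the record. None of these best peaks overlapped between lists. Over the whole lists only 8.88% of WT peaks and 6.31% of DNAJC12KO peaks overlapped the other list.

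Those in the WT list alone included the actin-binding ABLIM1 (fold 4.09), the collapsin response mediator DPYSL2 (4.54), the netrin receptor DSCAM (3.62), the adhesion molecule FLRT1 (3.54) and the exchange factors KALRN (4.23) and TRIO (3.82). In the DNAJC12KO list alone were the adhesion molecule CNTN2 (3.53), the kinase FES (4.21), the Eph-linked exchange factor NGEF (3.93) and the repulsive guidance molecule RGMA (3.65). The growth cone gene GAP43 had no peak in either list.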

How the data were processed

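H4K5la immunoprecipitates of WT and DNAJC12KO SH-SY5Y cells were compared, 1 library each. MACS2 2.2.6 and hg38 are named in the submitters' processing notes. The sources used here do not give the aligner, filters, peak-calling options, use of the inputs or any spike-in scaling. The authors deposited 1 broad peak list per genotype, called per library, with a score, a fold enrichment (ratio), a -log10 p and a -log10 q per peak; score and -log10 p were not used. The lowest -log10 q was 1.03 (WT) and 1.01 (DNAJC12KO). A place without a peak is thus below the authors' threshold or was not searched. Columns of other samples numbered 0.

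Each list was assigned to its genotype's immunoprecipitate by the sample descriptions, which name it for the input too. Peaks on other sequences (6 WT, 12 DNAJC12KO) were left out. Gene records and promoters came from RefSeq tables of GRCh38.p14; coordinates are 1-based. The table gives no exons, so exon, intron and UTR were not assigned. The readthrough EFNA4-EFNA3 and UNC5CL are not members. Overlap was computed in Python 3.11.15 with pandas 2.3.3 and numpy 2.4.6, intervals with scipy 1.17.1 and plots with matplotlib 3.10.9; the overlap code was tested on simulated data.

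All members with a peak were named: every peak for members marked in both lists, with 3 or more peaks or among the 5 highest folds of a list, otherwise the fold of each peak. Single genes named for lacking a peak were picked with values in view. The members and lists were chosen with earlier results of these data known. Alternatives were other windows, stricter thresholds, lists of equal length, peak centres, and leaving out chromosomes 7 and 17 or, added after seeing the data, PLXNA1 and PLXNB2. A result on a partner gene is not reported here.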

Additional observations from a re-analysis of the deposited data

How the results depend on the processing

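No paired analysis was possible because each genotype has 1 library and no test was made. Of 45 alternative values for the numbers of marked genes and peaks, 34 stayed within 1.5 times the value reported. They comprised 4 of the 5 values without PLXNA1 and PLXNB2 and all values for windows of 0, 1 and 10 kb, peak centres, lists of equal length and the omission of chromosomes 7 and 17, over which 11 to 16 genes had a WT peak, 14 to 19 a DNAJC12KO peak and 6 to 9 both. With the gene record only, 12 genes had a WT peak and 16 a DNAJC12KO peak, against 5.53% and 7.12% of all genes. With 10 kb, 16 and 19 had one, against 8.54% and 10.8%. No background share was computed for the rest of these settings, or for genes in both lists at any alternative. Stricter peak thresholds gave 10 of the 11 values beyond 1.5 times. With a -log10 q of at least 2, 3 genes kept a WT peak (PLXNB2, SEMA3F and UNC5B, 3 peaks; 0.933% of all genes), 1 kept a DNAJC12KO peak (PLXNB2, 1 peak; 1.08% of all) and 1 kept both. With a fold of at least 4, 8 genes kept a WT peak (13 peaks), 3 a DNAJC12KO peak (3 peaks) and 3 both, against 2.39% and 1.94% of all genes. The last was the number of WT peaks without PLXNA1 and PLXNB2: 15 were left of 26, and 0.982 WT peaks per Mb of window in place of 1.69, against 1.24 over all protein-coding genes. Most guidance peaks thus lay close to the authors' threshold, as did most peaks of the whole lists. Of those, 10.4% (WT) and 9.99% (DNAJC12KO) had a -log10 q of at least 2. Depth, which is unknown, limits what a missing peak can show.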

Other observations

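Promoter composition was looked up for the 60 guidance genes with a RefSeq promoter. The 21 with a peak had a median of 27 CG dinucleotides and a GC content of 66.7% in the 300 bases, and the 39 without a peak had 21 and 64.0%. Over all protein-coding genes the medians were 28 and 68.0% with a peak and 21 and 62.0% without. PLXNA1, with 54 CG and 83.0% GC, was above these medians, and PLXNB2, with 14 CG and 66.7% GC, was not above them in CG, although both carried many peaks in the gene body. The values are descriptions, with 1 library per genotype.

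Guidance genes under 100 kb held 17 WT and 18.5 DNAJC12KO peaks per Mb of window, against 2.49 and 3.19 over all protein-coding genes of that length. Guidance genes of at least 100 kb held 0.284 in each list, against 0.534 and 0.786. The short genes make up 1.30 Mb of the 15.4 Mb of window. PLXNA1 and PLXNB2, both under 100 kb, supplied 11 of the 22 WT peaks and 7 of the 24 DNAJC12KO peaks of the short genes. The density of the short genes without these 2 was not computed.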
